A study of Homo sapiens with 10 samples.

Results

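The RNA of clone G10, a SHIP2 knock-out clone of KYSE-410, was compared with the RNA of a control colony of the same line. KYSE-410 cells were established from a human squamous cell carcinoma of the oesophagus. The comparison used 4 of the 10 libraries of the series, 2 of G10 and 2 of the control, chosen by their labels. Of 58302 genes in the deposited table, 16822 had at least 1 CPM (read counts scaled to the library total) in at least 2 of these 4 libraries and were tested. G10 is 1 clone: cells received Cas9 nickase plasmids aimed at SHIP2 together with a GFP reporter, GFP-positive cells were sorted into a multi-well plate and expanded, and clones were chosen by Western blot for SHIP2. The control is 1 colony that received the same vector without a guide RNA. The other 6 libraries come from the clones D4, G4 and H3, made in the same way. All groups share the parental line and the transfection. The labels do not say whether the 2 libraries of a group came from separate cultures, so p-values measure the spread between these libraries, which may be technical, and a change due to the loss of SHIP2 cannot be told apart from other differences between 1 clone and 1 colony.

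SHIP2, encoded by INPPL1, is an inositol 5-phosphatase. It removes the 5-phosphate from PI(3,4,5)P3, the lipid that PI3K makes at the plasma membrane and that recruits AKT, and it binds adaptors of endocytosis and of the actin cytoskeleton. Squamous cancer cells of the oesophagus usually keep a basal epithelial programme that is led by the transcription factor TP63, and many of them have a raised NRF2 (NFE2L2) response, which drives antioxidant and detoxifying enzymes.

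With the scaling of the deposited values undone, the control libraries held an estimated 11196317 and 13077573 reads, and those of G10 held 13214427 and 14253436. The 2 G10 libraries agreed less closely than those of any other group. Their correlation across 8639 genes, which are not independent replicates, was r = 0.9826, against 0.9919 to 0.9955 in the other groups, and the variance between them was 7.2 times that of counting, against 1.95 to 3.43 times. The values of the genes concerned are given after the main comparison.

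Markers of the labelled cell type were present but lower. Of 10 squamous epithelial markers 8 were tested and 6 were lower, among them DSG3 (48.2 and 45.8 CPM to 9.19 and 7.94 CPM, −2.33) and SFN (−1.29); their summed level was 2005.0 and 1926.5 CPM in the control and 1156.5 and 1074.6 CPM in G10. KRT5 was low in both, at 13.6 and 12.8 CPM and at 10.5 and 8.24 CPM, and its call (-0.46) was lost without any 1 of 3 libraries (adjusted p = 0.0747 to 0.177, limma). Markers of other cell types were near 0: the summed endothelial markers reached at most 3.1 CPM, DCN, CD3E and HBB were at 0 in all 4 libraries, and PTPRC was at most 0.1 CPM. Of 8 fibroblast markers 2 were tested, and LUM, a matrix proteoglycan, rose from 4.50 and 4.55 CPM to 29.9 and 26.4 CPM (2.40) while COL1A1 had −0.01 and was not called (adjusted p = 0.964, limma). CD68, a lysosomal membrane protein, fell from 38.6 and 37.6 CPM to 8.09 and 5.85 CPM (−2.31). In bulk RNA fewer cells of a type and less RNA per cell cannot be told apart.

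INPPL1 (ENSG00000165458, chromosome 11, 72223701 to 72239105 on hg38) stood at 140 and 150 CPM in the control libraries and at 9.49 and 9.49 CPM in the G10 libraries. G10 therefore kept 6.6% of the control level, and the groups were far apart. On the log2(CPM + 1) scale used for all fold changes, which understates changes of low genes, the difference was −3.80 ± 0.10 (SE, n = 2 per group). D4 kept 61.0%, G4 44.8% and H3 59.9% of the control level. G10 was picked out as the clone with the lowest INPPL1, so these values and its rank among the clones are a description, with no test. SHIP2 protein was not analysed here.

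Against the control, 2622 genes (15.6% of those tested) were higher in G10 and 2802 (16.7%) were lower at an adjusted p under 0.05. Of these, 306 were higher and 466 lower by at least 2-fold, 1.82% and 2.77% of the genes tested. The fold counts depend on the scale: they were 532 and 718 with a pseudocount of 0.1, and 525 genes were higher at least 2-fold without G10 replicate 1. Without control replicate 1 the call counts were 1770 higher and 1814 lower. With 2 libraries a group, the groups did not overlap for 65.8% of all genes tested, so lack of overlap alone carries little weight.

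KRT6A, a keratin of activated squamous epithelium, had the largest fall. It stood at 899 and 919 CPM in the control and at 5.95 and 7.99 CPM in G10, a log2 fold change of −6.85 ± 0.12 (SE, n = 2 per group, adjusted p = 8.39e-11, limma). Both control libraries were high and both G10 libraries low. Each gene named among the 12 largest falls or rises had to have both G10 libraries on 1 side of both control libraries. KRT6A, KRT6B and KRT6C are near-identical, and reads shared between them cannot be assigned with certainty. MEST, an imprinted gene of the hydrolase fold family, fell from 101 and 103 CPM to 1.45 CPM in both G10 libraries (−5.40 ± 0.13, SE). The antisense AC007938.2, which overlaps MEST, had −4.31, and without a stated strand setting their reads cannot be told apart. CPT1A, which loads long-chain fatty acids for entry into mitochondria, fell from 227 and 219 CPM to 5.15 and 5.10 CPM (−5.19 ± 0.10, SE).

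LY6D, SERPINB2, MMP1 and KLF13 were also among the 12. LY6D, a surface marker of squamous cells, went from 35.2 and 40.8 CPM to 0.35 and 0.749 CPM (−4.66). SERPINB2, an inhibitor of urokinase, went from 263 and 239 CPM to 18.2 and 14.6 CPM (−3.86), and it overlaps SERPINB10. MMP1, the interstitial collagenase, which overlaps WTAPP1, went from 110 and 95.5 CPM to 3.15 and 1.85 CPM (−4.91). Separation of the 2 groups was required of all these genes. KLF13, a transcription factor of the Krüppel-like family, stood at 64.1 and 61.6 CPM in the control and at 1.90 and 0.799 CPM in G10 (−4.81).

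The enzymes GSTP1, ALDH3A1 and CYP4F11 were among the 12 as well. GSTP1, a glutathione transferase, stood at 44.7 and 49.7 CPM in the control and at 0.55 and 1.15 CPM in G10 (−4.72 ± 0.18, SE). From the estimated reads, 1151 in the control and 23 in G10, the control was 56.6 times higher (95% counting interval 37.6 to 89.7). ALDH3A1, an aldehyde dehydrogenase, fell from 436 and 454 CPM to 27.1 and 23.9 CPM (−4.08 ± 0.09, SE), and the antisense AC005722.3 that overlaps it had −3.92. CYP4F11, a cytochrome P450 of fatty acid and vitamin K oxidation, fell from 36.7 and 35.3 CPM to 1.70 and 1.0 CPM (−3.99 ± 0.17, SE). Adjusted p values of the 12 largest falls ran from 2.32e-12 to 1e-05 (limma), and all 12 were still called whichever of the 4 libraries was left out.

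The largest rises started from very low control levels. BST2, an interferon-inducible membrane tether of viruses, stood at 0.1 and 0.5 CPM in the control and at 32.8 and 32.1 CPM in G10 (log2 fold change 4.70 ± 0.18, SE). Its estimated reads were 7 and 890, a ratio of 112.4 (95% counting interval 54.3 to 280.3). LINC00665, a long non-coding RNA, had 2 control reads and 581 in G10, a ratio of 256.7 (70.7 to 2124.9). MAGEA11, a cancer-testis antigen and androgen receptor coregulator, had 0 reads in the control and 511 in G10, at least 150.5-fold higher against a floor of 3 reads over the control group. The wide intervals cover counting error only.

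Other rises, apart from those of COL5A1 and CNTNAP2 (12 and 23 estimated control reads), concerned genes with a measurable control level. TGM2, a transglutaminase that cross-links matrix proteins, stood at 50.4 and 48.1 CPM in the control and at 487 and 505 CPM in G10 (3.31 ± 0.08, SE, adjusted p = 1.61e-11, limma). VGLL1, a cofactor of TEAD transcription factors, went from 2.80 and 2.25 CPM to 45.6 and 37.2 CPM (3.59). LIMCH1, an activator of non-muscle myosin, went from 8.6 and 8.59 CPM to 84.8 and 77.6 CPM (3.10). Both G10 libraries were above both control libraries in each, which the choice of genes required. The kinase anchor gene AKAP2 (3.16) and its read-through PALM2-AKAP2 (3.19) share exons and count as 1 locus. The collagens COL5A1 (0.3 and 0.7 to 9.79 and 12.3 CPM) and COL16A1 (6.10 and 7.75 to 42.2 and 56.5 CPM), the CDC42 exchange factor FGD3 (2.62) and CNTNAP2, a neurexin family adhesion protein (2.42), complete the 12. Their adjusted p values ran from 1.61e-11 to 2.63e-06 (limma), and all 12 were still called whichever of the 4 libraries was left out.

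**Figure D1:**
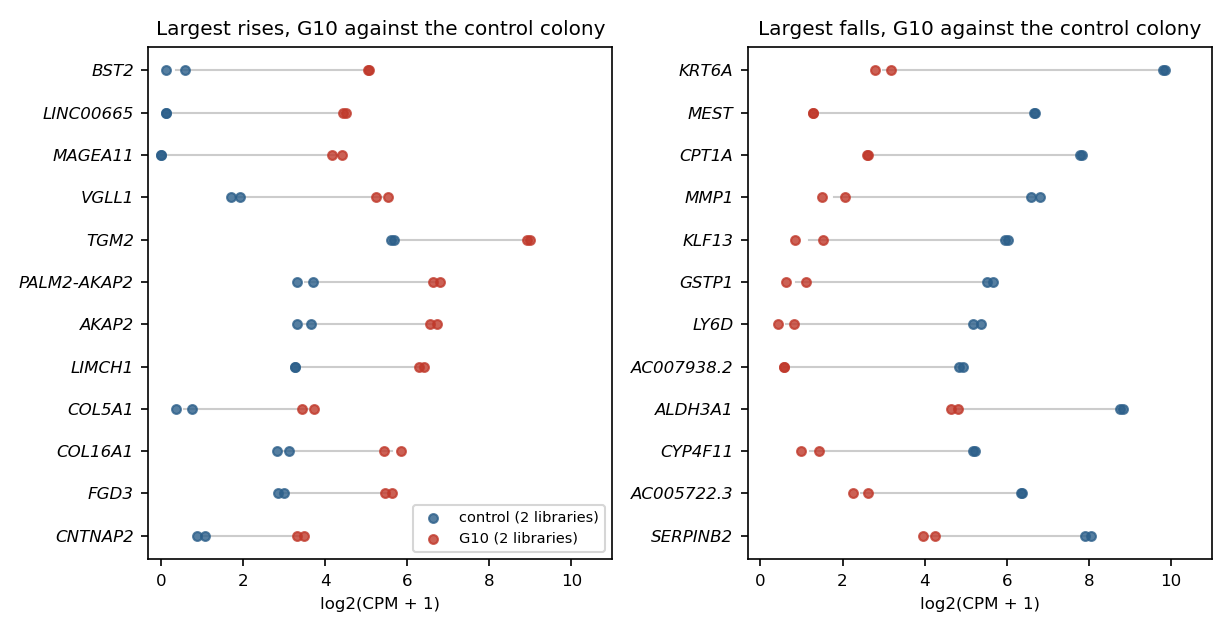
Levels of the 12 genes with the largest rise (left) and the 12 with the largest fall (right), as log2(CPM + 1); each point is 1 library, blue for the control and red for G10, and the grey line joins the group means. The points of the 2 groups are apart for all 24 genes, as the choice of genes required, and BST2, LINC00665 and MAGEA11 start at or near 0 in the control.

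Genes of basal squamous epithelium were lower in G10. Of the 29 tested members of that list 22 were lower and 1, the cadherin CDH3, was higher (0.24), against 16.7% lower and 15.6% higher over all genes tested. The median log2 fold change was −1.08, where the median of all genes tested was 0. The same shares are the background for every later list count against the control. The call of CDH3 was lost when any of 3 libraries was left out (adjusted p = 0.116 to 0.288, limma). KRT17, a keratin of basal and stressed epithelium, stood at 424 and 449 CPM in the control and at 53.2 and 57.2 CPM in G10 (−2.96). COL17A1, the hemidesmosome collagen, stood at 284 and 296 CPM and at 36.4 and 35.9 CPM (−2.97). TP63, the master regulator of the basal programme, stood at 216 and 193 CPM in the control and at 86.9 and 83.7 CPM in G10, a change of −1.25 ± 0.09 (SE, n = 2 per group, adjusted p = 4.25e-07, limma). Each of these 3 genes was lower in both G10 libraries than in either control library. TP63 lies among neighbours whose median was −0.33, and with window medians subtracted from all genes 23 members of the list were lower.

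LAMB3 and LAMA3, laminin chains that anchor basal cells to the basement membrane, both fell. LAMB3 went from 918 and 988 CPM to 306 and 353 CPM (−1.53) and LAMA3 had −1.45. SOX2, a partner of TP63 in squamous cancers, went from 7.0 and 7.79 CPM to 1.55 and 0.949 CPM (−1.91), with neighbours at a median of −0.52. KRT14 and PKP1 did not pass the filter, and KRT14 had at most 1.40 CPM in any of the 4 libraries. Of the 14 tested members of the cornified envelope and suprabasal list, 6 were lower and 2 higher, with a median of −0.13, while 18 members, among them IVL and LOR, were not tested. GRHL3, a transcription factor of the epidermal barrier, fell from 32.6 and 34.4 CPM to 3.35 and 2.35 CPM (−3.18), and the mucosal keratin KRT13 fell from 131 and 139 CPM to 17.7 and 14.4 CPM (−3.00).

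The keratins of simple epithelium moved the other way. KRT8 stood at 447 and 492 CPM in the control and at 1027 and 1277 CPM in G10 (1.29 ± 0.11, SE), and its partner KRT18 at 327 and 341 CPM and at 778 and 830 CPM (1.26 ± 0.08, SE). The genes KRT8 and KRT18 overlap on opposite strands, and without a stated strand setting reads from the overlap cannot be told apart. KRT7 rose by 0.95 and the sodium channel subunit SCNN1A by 1.33. In the list of simple epithelial genes 6 of 17 tested members were higher and 3 lower, with a median of 0.08. CDH1, the epithelial cadherin, had −0.17 and was not called (adjusted p = 0.115, limma).

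Mesenchymal genes were mixed. Of 20 tested members 8 were higher and 5 lower, with a median of 0.11, and 9 members such as SPARC, ZEB2 and COL1A2 were not tested. AXL, a receptor tyrosine kinase of the TAM family, stood at 51.7 and 52.3 CPM in the control and at 198 and 206 CPM in G10 (1.94 ± 0.09, SE, adjusted p = 3.88e-09, limma). CDH2, the neural cadherin, rose from 77.7 and 66.5 CPM to 188 and 164 CPM (1.28), and FN1, fibronectin, from 162 and 151 CPM to 446 and 395 CPM (1.42). VIM, the mesenchymal intermediate filament, remained low at 9.09 and 7.29 CPM, from 1.90 and 2.15 CPM (1.60). For AXL, CDH2, FN1 and VIM both G10 libraries lay above both control libraries. These genes were picked from the members that rose. Of the 8 higher members 6 changed by at least 2-fold, and 0 of the 5 lower members did.

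NRF2 target genes and aldo-keto reductases had the lowest median after the basal squamous genes of the 30 lists. Of 26 tested members 18 were lower and 5 higher, and the median was −0.71. The aldo-keto reductases reduce aldehydes, ketones and steroids. AKR1C1 stood at 146 and 134 CPM in the control and at 11.3 and 9.99 CPM in G10 (−3.60 ± 0.11, SE), AKR1C3 at 278 and 270 CPM and at 45.6 and 36.6 CPM (−2.71), and AKR1C2 at 481 and 440 CPM and at 132 and 110 CPM (−1.92). The AKR1C genes are near-identical neighbours, so reads may be split between them. HMOX1, which degrades haem, fell from 70.5 and 69.4 CPM to 16.6 and 17.1 CPM (−1.99).

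Other members of the list had smaller changes. GPX2, a glutathione peroxidase, went from 216 and 198 CPM to 83.7 and 65.7 CPM (−1.46), and GCLC, the catalytic subunit of glutathione synthesis, from 115 and 112 CPM to 48.1 and 45.5 CPM (−1.26). Its partner GCLM had −0.69, the thioredoxin reductase TXNRD1 −0.54 and PGD, an NADPH-making enzyme of the pentose phosphate pathway, −0.43. NQO1, a quinone reductase, went from 408 and 391 CPM to 317 and 291 CPM (−0.39), and no longer passed once control replicate 1 was left out (adjusted p = 0.0573, limma). The retinal dehydrogenases ALDH1A3 (1.12) and ALDH1A1 (2.21) were among the members that rose. NFE2L2 itself had −0.20 (adjusted p = 0.121, limma) and KEAP1, its inhibitor, −0.09 (adjusted p = 0.522, limma), so neither was called.

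NRF2 binds the antioxidant response element, and the core letters TGACNNNGC were searched on both strands in the 250 bases before the start of each RefSeq gene (GRCh38.p14). The letters stood in 4 of the 12 lower members of the list that had a promoter entry (GCLM, TXNRD1, PGD and GPX2) and in 3 of the 8 that were not lower. They stood in 15.7% of the 10467 tested genes with an entry and in 10.9% of all 35116 entries. A match is a description and no measured site. The promoters of 4 genes that fell and hold a match are shown, 2 from the list and 2, GSTP1 and CYP4F11, from the largest falls. They were picked for both traits. The other matching members of the list are not shown: GCLM and PGD, which fell, and KEAP1, UGT1A6 and CBR1, which were not lower. Each promoter is printed 5′ to 3′ on the strand of its gene, with the match in capitals. The match reads GCNNNGTCA where it lies on the opposite strand.

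GSTP1, chr11:67583562-67583811, plus strand: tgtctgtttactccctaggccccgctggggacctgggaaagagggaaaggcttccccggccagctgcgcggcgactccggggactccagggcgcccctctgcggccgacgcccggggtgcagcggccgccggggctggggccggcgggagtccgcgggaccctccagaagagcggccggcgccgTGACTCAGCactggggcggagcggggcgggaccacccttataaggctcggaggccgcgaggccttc

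GPX2, chr14:64942746-64942995, minus strand: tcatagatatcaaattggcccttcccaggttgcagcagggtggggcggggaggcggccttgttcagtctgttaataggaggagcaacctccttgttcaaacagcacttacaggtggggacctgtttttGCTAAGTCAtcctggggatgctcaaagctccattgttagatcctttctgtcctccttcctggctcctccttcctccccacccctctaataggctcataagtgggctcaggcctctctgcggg

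TXNRD1, chr12:104215529-104215778, plus strand: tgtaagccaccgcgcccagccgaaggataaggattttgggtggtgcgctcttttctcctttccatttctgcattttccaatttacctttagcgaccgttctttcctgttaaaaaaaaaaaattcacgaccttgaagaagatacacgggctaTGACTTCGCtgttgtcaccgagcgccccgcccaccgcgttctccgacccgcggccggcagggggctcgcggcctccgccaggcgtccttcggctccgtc

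CYP4F11, chr19:15934868-15935117, minus strand: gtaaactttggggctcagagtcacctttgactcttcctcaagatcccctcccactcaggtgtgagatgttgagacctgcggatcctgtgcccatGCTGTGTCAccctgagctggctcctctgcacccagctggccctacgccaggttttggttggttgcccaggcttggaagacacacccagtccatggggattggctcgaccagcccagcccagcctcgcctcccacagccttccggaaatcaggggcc

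The match in GSTP1 and that in TXNRD1 lie on the strand of the gene, and those in GPX2 and CYP4F11 on the opposite strand. In these 250 bases GSTP1 has 28 CG pairs and TXNRD1 has 24, while GPX2 has 3 and CYP4F11 has 5. DNA methylation was not analysed here.

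The list had other medians in the other clones. Each clone was set against the same control libraries, so the values are given side by side: the median of the 26 members was −0.05 in D4, 0.29 in G4 and 0.36 in H3, and −0.71 in G10. A comparison that leaves the control out, G10 minus the mean of D4, G4 and H3 in a fit of all 10 libraries with a weight for each group, found 21 of the 26 lower in G10 and 2 higher, with a median of −0.69. Over all genes tested this comparison called 2040 (12.1%) lower and 2348 (14.0%) higher, 171 (1.02%) and 129 (0.767%) of them by at least 2-fold. Without G10 replicate 2 it called 961 lower and 1088 higher, and without G10 replicate 1 it called 1367 and 1563. The count of 21 was between 19 and 21 when either G10 library or any of the 3 clones was left out.

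**Figure D2:**
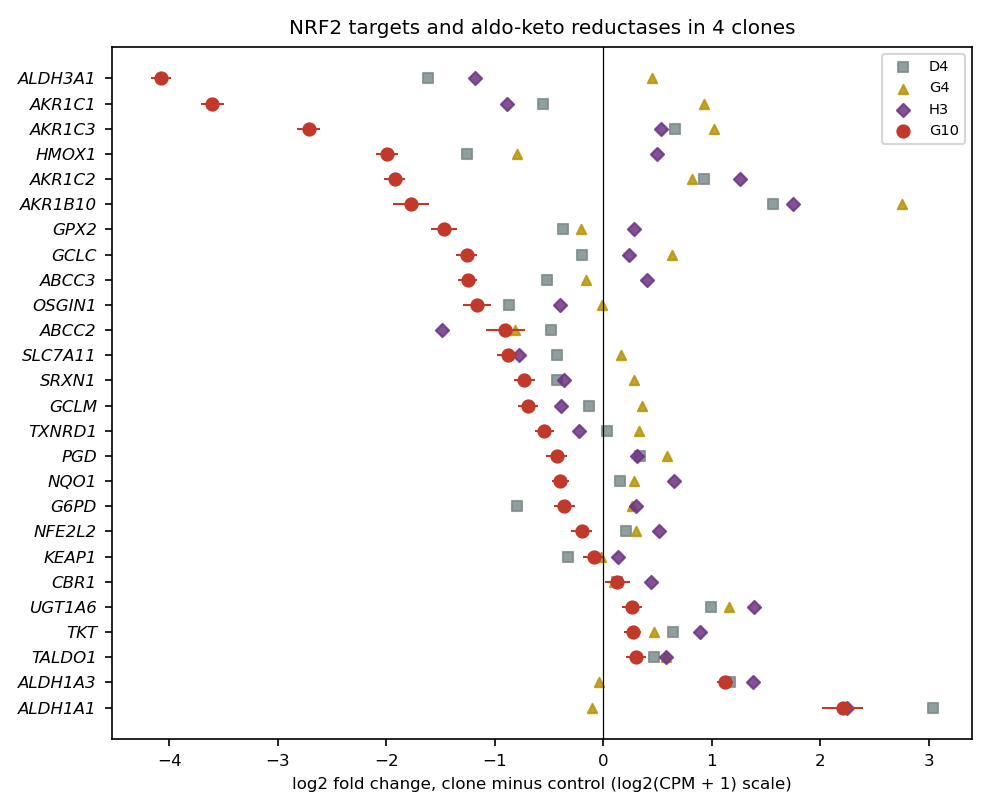
Log2 fold change against the control (log2(CPM + 1) scale) of the 26 tested NRF2 targets and aldo-keto reductases in the 4 clones; red circles with bars are G10 ± SE (n = 2 libraries per group), and the grey squares, yellow triangles and purple diamonds are D4, G4 and H3. AKR1C3, AKR1C2 and AKR1B10 lie below 0 in G10 and above 0 in the other 3 clones, while AKR1C1 lies below 0 in D4 and H3 as well.

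Genes were named here if they passed against the control and against the other clones in the same direction. Both G10 libraries also had to lie beyond all 6 libraries of the other clones. Under this rule the largest differences were among these enzymes. AKR1B10 stood at 2.35 and 2.5 CPM in G10 and at 11.6 and 9.79 CPM in the control, and between 32.1 and 86.8 CPM in the 6 libraries of the other clones (G10 minus the other clones −3.79 ± 0.14, SE, adjusted p = 4.94e-11, limma). AKR1C3 ranged from 372 to 574 CPM in those 6 libraries, against 45.6 and 36.6 CPM in G10 (−3.45). AKR1C1 (−3.43), ALDH3A1 (−3.29) and CYP4F11 (−3.18) followed, as did CES1, a carboxylesterase (−3.42), and CA12, a membrane carbonic anhydrase (−3.15). Set against the control, AKR1C1 was also lower in D4 (−0.56) and H3 (−0.89), and higher in G4 (0.93). ALDH3A1 (−1.61, −1.18 and 0.45) and CYP4F11 (−2.47, −1.20 and 1.24) had the same directions in D4, H3 and G4. For each of the 7 genes named here both G10 libraries lay below all 6 libraries of the other clones, as the rule required.

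CA12 also separated G10 from the control, at 5.25 and 3.75 CPM in G10 and 30.6 and 30 CPM in the control. CES1 was low in the control too, at 5.4 and 4.25 CPM, and was at 0.5 and 0.3 CPM in G10. Of the other clones H3 was far higher, at 63.0 and 54.7 CPM, while D4 had 7.7 and 6.6 CPM and G4 5.4 and 6.3 CPM. Over all genes, 574 passed both tests downwards with both G10 libraries below all 6 others, and 649 passed both upwards with both above; irrespective of the tests, both G10 libraries lay below all 6 for 8.95% of genes and above for 11.8%.

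Among the rises that set G10 apart, AXL was at 198 and 206 CPM against 40.3 to 105 CPM in the other clones (1.65 ± 0.07, SE, adjusted p = 2.77e-10, limma). CACNG7, a regulatory subunit family member of calcium channels and AMPA receptors, was at 20.1 and 25.3 CPM against 1.1 to 4.50 CPM (2.58). Both control libraries had 10.3 CPM of CACNG7, so G10 was 1.06 above the control while the other clones were below it. L1CAM, a neural adhesion molecule, was at 12 and 11.8 CPM against 1.50 to 7.45 CPM (1.66). The cholesterol exporter ABCA1 (1.68), the secreted-protein kinase FAM20C (1.69), the galactosyltransferase B3GALT5 (1.89), TMEM200A, a transmembrane protein (2.48), and LINC00665 (2.17) were the others named. Set against the control, ABCA1 was also higher in D4 (0.49), and lower in G4 (−2.08) and H3 (−1.05). LINC00665 averaged 12.64 CPM in D4 and 7.79 CPM in H3, against 0.1 CPM in the control and 0 in G4. TMEM200A rose by 0.93 over the control in G10, and was below the control in D4 (−1.17), G4 (−0.84) and H3 (−2.64). For all 8 named rises both G10 libraries lay above all 6 libraries of the other clones, which was a condition for naming them. Of the 12 largest rises over the control, LINC00665 and TGM2 also lay above all 6 libraries of the other clones. BST2 did not: it was at 67.1 to 77.6 CPM in D4 and H3 and at 0.3 and 0.5 CPM in G4, with G10 between them.

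Genes of cholesterol synthesis and uptake separated G10 from the other clones and not from the control. Against the control 6 of 27 members were higher and 4 lower, with a median of −0.01. Against the other clones 18 were lower and 1, ABCA1, was higher, with a median of −0.61. The medians over the control were 0.99 in D4, 0.54 in G4 and 1.00 in H3. SQLE, squalene epoxidase, stood at 56.8 and 56.1 CPM in G10, at 79.7 and 72.5 CPM in the control and at 148 to 205 CPM in the other clones (G10 minus the other clones −1.57 ± 0.07, SE, adjusted p = 2.66e-10, limma).

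SREBF2, the transcription factor of this pathway, stood at 56.5 and 62.7 CPM in G10, 75.0 and 72.1 CPM in the control and 129 to 166 CPM in the other clones (−1.28). Its call against the control, −0.30, was lost without any 1 of 3 libraries (adjusted p = 0.11 to 0.247, limma), and that of SQLE against the control (−0.42) without control replicate 1 (adjusted p = 0.109, limma).

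Mitochondrially encoded transcripts made up 2.49% and 2.31% of the G10 libraries, 2.38% and 2.55% of the control libraries and 2.95% to 3.30% of the libraries of the other clones. Of 15 tested genes 2, the ribosomal RNAs MT-RNR1 (−0.53) and MT-RNR2 (−0.40), were lower in G10 than in the control. Of the same 15, 14 were lower in G10 than in the mean of the other clones, with a median of −0.43.

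Among other metabolic genes, LDHA, which makes lactate, stood at 527 and 507 CPM in the control and at 1255 and 1150 CPM in G10 (1.22 ± 0.07, SE). LDHA lies in a stretch of chromosome 11 whose neighbours were also higher, with a median of 0.66 around it. NDRG1, a stress-response gene, fell from 240 and 222 CPM to 31.4 and 29.9 CPM (−2.87). PPARGC1A, a coactivator of mitochondrial genes, was at 0.3 and 0.25 CPM in the control and at 9.34 and 6.59 CPM in G10 (2.80). Its control values lay near the floor of 3 reads, 0.268 and 0.229 CPM in those libraries. Of the fatty acid list 8 of 27 members were higher and 4 lower, CPT1A among the latter, with a median of 0.03.

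**Figure D3:**
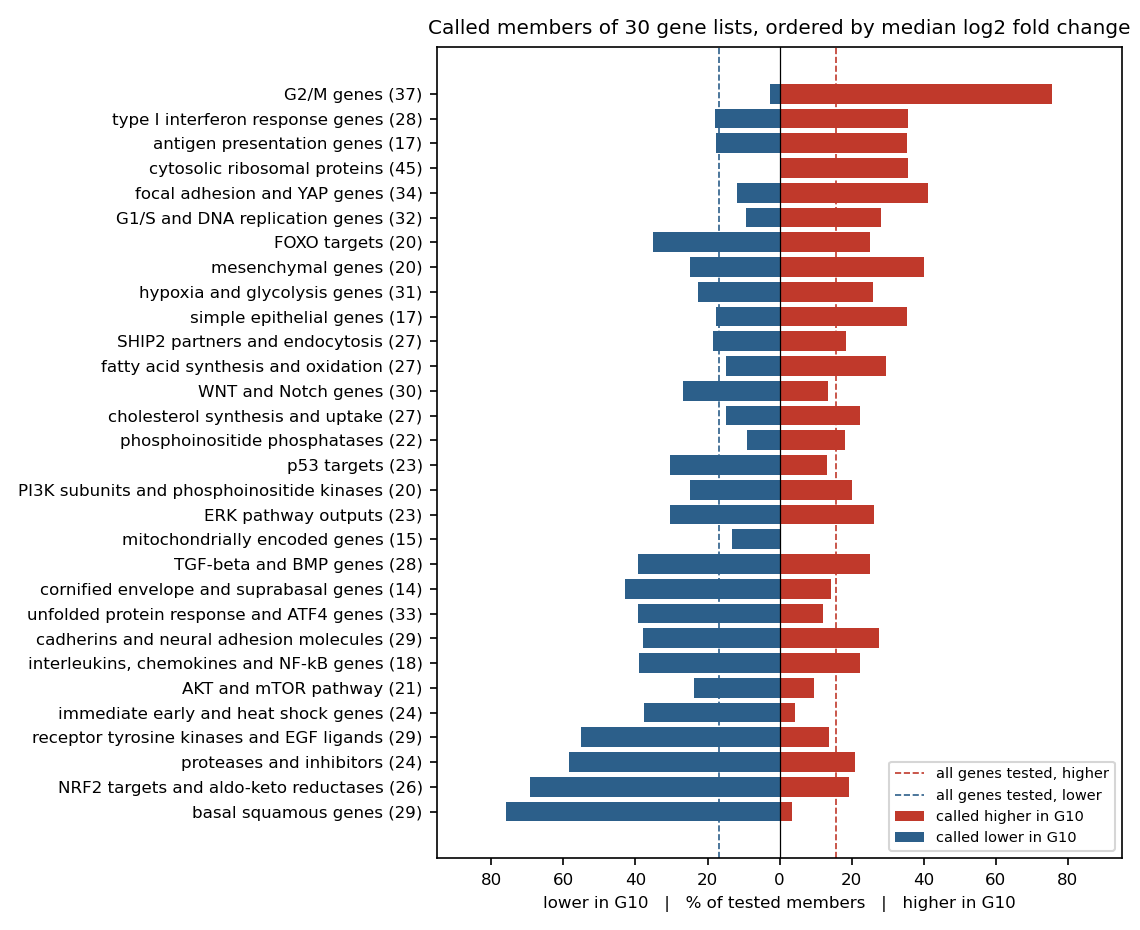
Share of tested members of each of 30 gene lists that was called higher (red, to the right) or lower (blue, to the left) in G10 than in the control, with the number of tested members in brackets; dashed lines give the shares over all genes tested (15.6% and 16.7%). Basal squamous genes (22 of 29 lower) and NRF2 targets (18 of 26 lower) stand at the bottom and G2/M genes (28 of 37 higher) at the top.

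Genes of the G2 and M phases were higher, each by a small amount. Of 37 tested members 28 were higher and 1, ECT2, was lower, and the median was 0.40. UBE2C, which supplies ubiquitin to the anaphase-promoting complex, stood at 119 and 131 CPM in the control and at 196 and 227 CPM in G10 (0.75), and AURKA, a spindle kinase, at 173 and 176 CPM and at 276 and 239 CPM (0.56). TOP2A had 0.47 and CCNB1 0.39. Without control replicate 1 the count was 20 and without control replicate 2 it was 18. PLK1, the mitotic kinase, stood at 156 and 175 CPM and at 179 and 191 CPM (0.16 ± 0.09, SE, adjusted p = 0.201, limma). PLK1 lies among neighbours with a median of −0.39, and with window medians subtracted it was called at 0.54. ECT2, an exchange factor of cytokinesis, had −0.27, a call lost without any 1 of 3 libraries (adjusted p = 0.124 to 0.308, limma). Against the other clones 7 of the 37 were higher and 4 lower, with a median of 0.09.

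Of 45 cytosolic ribosomal protein genes 16 were higher and the other 29 were not called, with a median of 0.18. In the list of DNA replication genes 9 of 32 were higher and 3 lower, with a median of 0.12. CDKN2C, an inhibitor of CDK4 and CDK6, rose from 4.60 and 5.6 CPM to 18.7 and 19.5 CPM (1.73), while CDKN1A, a p53 target and inhibitor of CDK2, fell from 135 and 136 CPM to 46.5 and 47.8 CPM (−1.51). Of 23 tested p53 targets 7 were lower and 3 higher, with a median of −0.06.

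Proteases and their inhibitors were mostly lower: 14 of 24 tested members were lower and 5 higher, with a median of −0.46. MMP10, a stromelysin, fell from 36.3 and 29.7 CPM to 2.2 and 1.45 CPM (−3.60), and it overlaps WTAPP1. MMP14, a membrane collagenase, fell from 131 and 136 CPM to 54.3 and 65.0 CPM (−1.15). PLAT, the tissue plasminogen activator, rose from 1.2 and 0.849 CPM to 7.45 and 8.44 CPM (2.15). Both G10 libraries were on 1 side of both control libraries in these 3 genes.

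Of 29 receptor tyrosine kinases and EGF ligands 16 were lower and 4 higher, with a median of −0.34. EGFR stood at 587 and 556 CPM in the control and at 321 and 296 CPM in G10 (−0.89 ± 0.08, SE, adjusted p = 2.75e-06, limma). The ephrin receptor EPHB3 (−1.56), the ligand HBEGF (−1.44) and the ephrin EFNB1 (−1.41) fell by more. Of the 23 genes that report ERK activity 7 were lower and 6 higher, with a median of −0.07: the phosphatase DUSP5 fell by 1.87 and DUSP4 rose by 0.98. Among the interleukin and NF-kB genes 7 of 18 were lower and 4 higher (median −0.17), with IL1A going from 40.7 and 35.9 CPM to 10.5 and 6.35 CPM (−2.09) and the inflammasome sensor NLRP1 from 20.5 and 21.9 CPM to 0.4 and 0.849 CPM (−3.79).

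Of 22 tested phosphoinositide phosphatases 4 were higher and 2, INPPL1 and OCRL, were lower, with a median of −0.02. OCRL had −0.42, and its call was lost without G10 replicate 2 or control replicate 2 (adjusted p = 0.0821 and 0.0591, limma). INPP4B, which acts on PI(3,4)P2, the product of SHIP2, stood at 97.4 and 86.2 CPM in the control and at 156 and 135 CPM in G10 (0.66 ± 0.10, SE, adjusted p = 0.000294, limma) and was also higher than in the other clones (0.85). INPP5D, the relative of SHIP2 in blood cells, did not pass the filter.

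Of 20 PI3K subunits and phosphoinositide kinases 4 were higher and 5 lower, with a median of −0.07. PIK3CA, the catalytic subunit that is often mutated in squamous cancers, stood at 67.3 and 60.6 CPM in the control and at 37.5 and 36.0 CPM in G10 (−0.78 ± 0.10, SE, adjusted p = 8.18e-05, limma). Its neighbours had a median of −0.49, and with window medians subtracted it had −0.29 (adjusted p = 0.0529, limma). PIK3C2A, a class II kinase, rose from 76.2 and 66.4 CPM to 150 and 136 CPM (1.00) among neighbours with a median of 0.65.

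AKT1 had 0.11 (adjusted p = 0.385, limma) and AKT2 −0.21 (adjusted p = 0.0835, limma), and neither was called. AKT2 was called in the fit of all 10 libraries (adjusted p = 0.025, limma) and without G10 replicate 2 (adjusted p = 0.0195, limma), and turned to 0.01 with window medians subtracted. Of 21 members of the AKT and mTOR list 2 were higher and 5 lower, with a median of −0.19 (0.01 with window medians subtracted). PDPK1, the kinase that activates AKT, fell from 125 and 119 CPM to 83.5 and 79.3 CPM (−0.57). Among 20 FOXO targets 5 were higher and 7 lower, with a median of 0.11 and the antioxidant enzyme CAT at 1.38 and the sestrin SESN3 at −1.65. Of 27 SHIP2 partners and endocytosis genes 5 were higher and 5 lower, with a median of 0.07. AP2M1, a subunit of the clathrin adaptor, fell from 945 and 912 CPM to 601 and 558 CPM (−0.68), with neighbours at a median of −0.50, and with them subtracted had −0.18 (adjusted p = 0.0841, limma).

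The remaining lists had medians between −0.23, for immediate early and heat shock genes, and 0.27, for interferon response genes. Higher and lower members numbered 10 and 5 of 28 interferon response genes, 6 and 3 of 17 antigen presentation genes, 14 and 4 of 34 focal adhesion and YAP genes, and 8 and 11 of 29 cadherins and neural adhesion molecules. They numbered 7 and 11 of 28 TGF-beta and BMP genes, 4 and 8 of 30 WNT and Notch genes, 8 and 7 of 31 hypoxia and glycolysis genes, 1 and 9 of 24 immediate early and heat shock genes, and 4 and 13 of 33 unfolded protein response genes. TGFB2 rose from 8.6 and 7.34 CPM to 40.3 and 38.5 CPM (2.17), and THBS1, a matrix activator of TGF-beta, from 1281 and 1211 CPM to 3424 and 3350 CPM (1.44). LGR4, a receptor of R-spondins, rose from 10.4 and 10.1 CPM to 57.7 and 49.1 CPM (2.27), among chromosome 11 neighbours with a median of 0.60, and NOTCH3 fell from 55.6 and 61.8 CPM to 19.8 and 24.1 CPM (−1.38).

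Medians of neighbouring genes differed along the chromosomes. Genes averaging at least 5 CPM were divided into 242 windows of at least 50 neighbours; 24 had a median of 0.3 or more and 11 a median of −0.3 or less. On chromosome 11 the windows from 127204 to 65506516 had medians of 0.26 to 0.65 in G10. They were 0.18 to 0.69 with G10 replicate 1 alone and 0.23 to 0.58 with replicate 2 alone. The first of them had 0.23 with replicate 1 and 0.50 with replicate 2. In those windows D4 and H3 lay between −0.21 and 0.08, except in the window from 11963106 to 32993316, where D4 had 0.53 and H3 0.41. That window had the highest median of all 242, with 48 of its genes called higher and 1 lower.

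G10 also stood apart on chromosomes 4 and 10. The window from 53285 to 6884170 of chromosome 4 had a median of 0.34, with the other clones at −0.06, −0.07 and −0.12, and the median difference from the mean of the other clones was 0.45. The window from 36521721 to 68946847 of chromosome 10 had −0.40, with the others at 0.08, −0.04 and −0.07 and a difference of −0.47. Other windows moved in several clones: distal chromosome 3, from 120686681 to 198043720, had medians of −0.31 to −0.51 in G10 and −0.30 to −0.62 in D4 and H3, and the last window of chromosome 6 had 0.52 in G10 and 0.38 to 0.47 in the others. RNA does not measure copy number, and DNA was not analysed here.

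**Figure D4:**
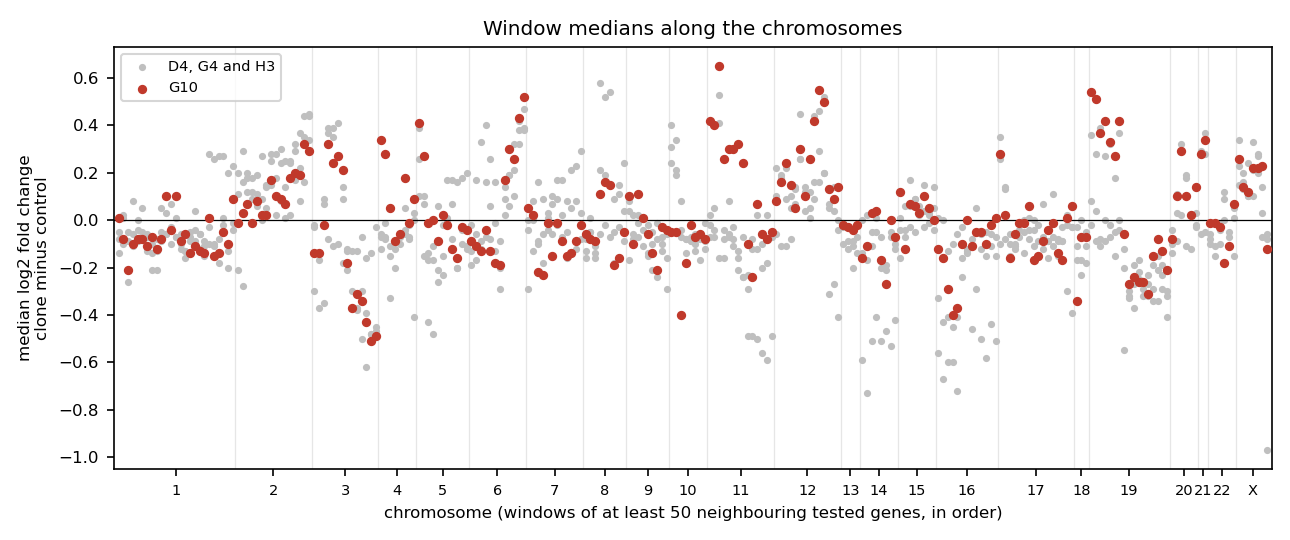
Median log2 fold change against the control in 242 windows of at least 50 neighbouring tested genes, in order along the chromosomes, with G10 in red and D4, G4 and H3 in grey. G10 lies above the other clones over the first part of chromosome 11 and at the start of chromosome 4, and falls with 2 of them over distal chromosome 3.

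The first windows of chromosome 19 depended on the library. Their 4 medians from 198264 to 10587315 were 0.37 to 0.54, but were 0.20 to 0.30 with G10 replicate 1 alone and 0.49 to 0.74 with replicate 2 alone. H3 had 0.27 to 0.39 there. The 2 G10 libraries differed in a particular set of genes. Of 8627 genes that averaged at least 20 CPM in G10, 419 were higher in replicate 2 by over 0.5 on the log2 scale and 1 was higher in replicate 1. MZT2B, a subunit of the gamma-tubulin complex, stood at 12.2 and 49.9 CPM in the 2 G10 libraries and at 10.6 and 17.5 CPM in the control libraries. For 413 of these 420 genes the control replicates differed in the same direction.

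These genes were rich in G and C. The median GC content of the longest GENCODE transcript was 64.5% for the genes with such a gap and 48.0% for the 8619 genes with a value. Among the 1724 genes with the highest GC content, 57.6% to 73.1%, replicate 2 minus replicate 1 had a median of 0.24 in G10 and 0.16 in the control, and among the 1724 with the lowest it was −0.11 in both. The median fold change between the groups was 0.06 among the former, and −0.08 or 0.19 with G10 replicate 1 or 2 alone. Of the 420 genes 15 were called, where 32.2% of all genes tested were, and 8 of the 15 changed at least 2-fold. A gap between the G10 libraries widens the error of the fit, so few calls follow from how these genes were chosen. The part of GC content in single changes was not tested.

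**Figure D5:**
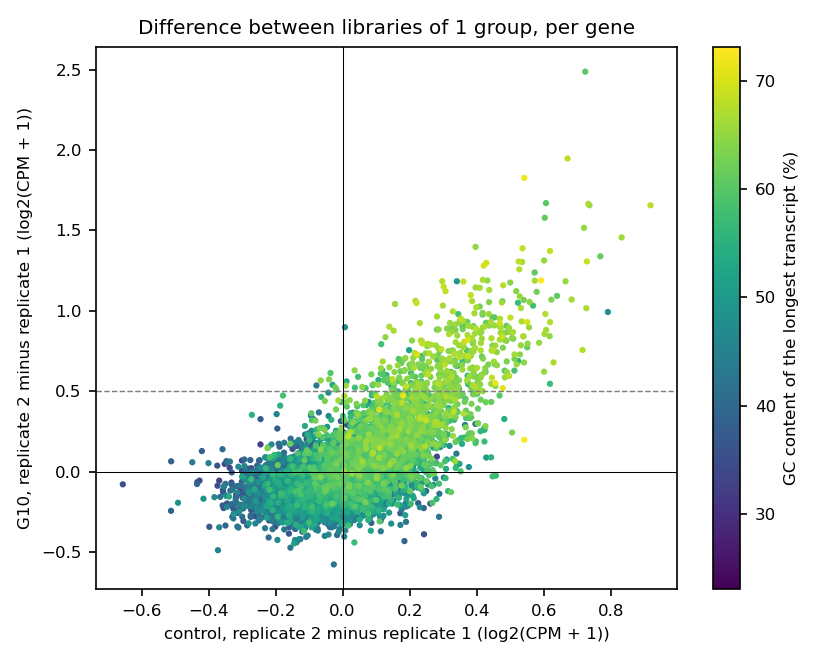
Difference between replicate 2 and replicate 1 of G10 (vertical) and of the control (horizontal), in log2(CPM + 1), for the 8619 genes that averaged at least 20 CPM in G10 and a GC value; each point is a gene, coloured by the GC content of its longest transcript, and the dashed line marks 0.5. The points above the line are mostly GC-rich and lie to the right of 0, where the control replicates differ in the same direction.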

How the data were processed

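The deposited table gave CPM for 58302 genes and 10 libraries; per the file headers the values are CPM, 1 column per library, and every column was used. Libraries were made with the Ovation Solo RNA-Seq System from total RNA, per the labels' protocols. STAR 2.5.3a, HTSeq and hg38 are named in the submitters' processing notes; the annotation release, the strand setting and filters are not given in the sources used here. The deposited CPM are whole multiples of a step that is not 1 read: read counts appear scaled to a common total and rounded up. Reads were estimated by undoing this, which explained 99.13% to 99.91% of values above 0 exactly; depth was 9653835 to 14253436 reads, and a count of 0 allows up to 3 reads (0.21 to 0.311 CPM, counting error only). Positions came from GENCODE 29 by Ensembl identifier (58039 genes matched), promoters and motifs from RefSeq.

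Genes that reached 1 CPM in 2 or more of the 4 libraries were fitted with limma 3.58.1 (trend, robust; R 4.3.3) on log2(CPM + 1), with 1 coefficient per group, no covariate and Benjamini-Hochberg adjustment at 0.05. G10 minus the mean of D4, G4 and H3 was fitted on all 10 libraries with array weights per group. Named genes were the 12 largest rises and falls that passed with a mean of at least 5 CPM and no overlap; 8 rises and 8 falls that passed both comparisons and lay beyond all other clones' libraries; up to 4 called members of each list; INPPL1, PLK1, PIK3CA, AKT1, AKT2, EGFR, TP63, SOX2 and KRT6A; and 4 genes with the largest G10 replicate gap in each direction; only some of these are described, and items withheld from this text are not reported here. A further 32 list members were named after their values were seen. The members and lists were chosen with earlier results of these data known. The fit was tested on simulated data. Alternatives were another scaling, filter, pseudocount, moderation and sample set, limma-voom on estimated reads, subtraction of window medians, a replicate block and leaving out each library or clone. Groups, comparisons and tables were prepared with Python and pandas.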

Additional observations from a re-analysis of the deposited data

Results flagged for a closer look

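Genes for which the difference between G10 and the mean of D4, G4 and H3 was itself tested and passed (limma, all 10 libraries, adjusted p from 4.11e-13 to 4.82e-06), with both G10 libraries beyond all 6 libraries of the other clones, are listed here by their log2 difference. G10 was higher for CACNG7 (2.58), TMEM200A (2.48), LINC00665 (2.17), B3GALT5 (1.89), FAM20C (1.69), ABCA1 (1.68), L1CAM (1.66) and AXL (1.65). The G10 libraries of FAM20C were at 23.9 and 35.9 CPM. G10 was lower for AKR1B10 (−3.79), AKR1C3 (−3.45), AKR1C1 (−3.43), CES1 (−3.42), ALDH3A1 (−3.29), CYP4F11 (−3.18), CA12 (−3.15) and AC005722.3 (−3.12), the last of which overlaps ALDH3A1. Groups of 2 libraries are too small for a check of outlying samples.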

How the results depend on the processing

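Of 192 results on genes chosen by rule or by name, 159 kept their direction and their side of the threshold in every alternative run for them (14 against the control, 9 against the other clones). Against the control, the count of higher genes (2622) ranged from 1770 to 3148 and that of lower genes (2802) from 1814 to 3152 when 1 library was left out; the lone library is then assumed to vary like the other groups. The counts of at least 2-fold changes were 307 to 525 higher and 488 to 508 lower in those fits, 532 and 718 with a pseudocount of 0.1, and 551 and 755 with limma-voom on estimated reads; 305 were lower with a mean of at least 5 CPM required. Against the other clones, leaving out a G10 library gave 1088 to 1563 higher and 961 to 1367 lower. INPPL1 ranged from −3.85 to −3.75 with 1 library left out, and from −3.93 (voom) to −3.65 (window medians subtracted) over all alternatives. The alternatives for list members were chosen after seeing the data: with 1 library left out, members lower numbered 21 to 23 for basal squamous genes, 17 to 19 for NRF2 targets, 11 to 15 for proteases and 13 to 15 for receptor tyrosine kinases, and members higher 18 to 28 for G2/M genes. Against the other clones they were 19 to 20 for NRF2 targets, 15 to 17 for cholesterol genes and 12 for mitochondrially encoded genes.

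A replicate block gave 4353 higher and 4315 lower genes; of the named genes it added the calls of PLK1, AKT2, NFE2L2 and CDH1 (for AKT2 adjusted p = 0.00031, limma) and ended none. The replicate numbers do not pair the libraries by any label: same-numbered deviations correlated at 0.595 between control and G10 and at 0.363 to 0.595 over the 6 pairs of groups without H3, but at −0.346 to −0.184 between H3 and the other groups. With window medians subtracted, the sign turned for AKT2 (0.01), SYNJ2 (−0.03), RPS15 (−0.02), ECT2 (0.18) and COL1A1 (0.04); it also turned for COL1A1 without G10 replicate 1 (0.16) or control replicate 2 (0.18), with a range of −0.21 to 0.18 over the 4 libraries left out in turn. The cause was not tested. With 2 libraries a group, a depth of 9653835 to 14253436 reads limits genes near the floor of 0.21 to 0.311 CPM.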
